A study of Mus musculus with 70 samples.

Results

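The miR-146 family of the mouse was followed in small RNA libraries of microglia and of the other cells of the same brains at 3 postnatal ages. The members were chosen by name and are the 4 mature miRNAs of this family, mmu-miR-146a-5p, mmu-miR-146a-3p, mmu-miR-146b-5p and mmu-miR-146b-3p (written without the mouse prefix mmu from here on), out of 1882 features kept from the count table. Each of them had 1 entry in the table, and all 4 passed the filter on low values of at least 1 CPM (a count scaled by its library total to 1000000) in at least 5 libraries, which left 1072 features for testing.

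Wild-type C57Bl/6 mice of both sexes, with no treatment named, were taken on day 6 or 15 after birth (P6 and P15) or as young adults of 8 weeks. The labels put the age in the field for treatment. From every whole brain the CD45+ cells were captured on an antibody-coated dish (immunopanning) and are called microglia here, and the remaining CD45- cells are called bulk. Other CD45+ blood cells carry the same surface protein, so the capture was of CD45+ cells rather than of microglia as such. The 68 analysed libraries came from 34 mice, with 4 females and 6 males at P6 and 6 of each sex at P15 and at 8 weeks, and each mouse gave 1 microglial and 1 bulk library. Each age was sampled from different animals.

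Library totals ranged from 1678034 to 8747394 counts, so that 3 counts, taken as the floor of detection, corresponded to between 0.343 and 1.79 CPM. Floors and counting intervals cover counting error only, because no molecular identifiers tell copied reads from separate molecules. P6 female mouse 6 is absent from the libraries the study analysed and was not used in the comparisons. Its microglial library had 1649 CPM of miR-146a-5p and 193.5 CPM of miR-146b-5p, below every other microglial library of that age. Among the analysed P6 microglia, the libraries of male mice 1, 5 and 6 stood apart from the other 7. They held between 7213 and 9953 CPM of miR-146a-5p against 4021 to 4977 CPM, and between 27.3 and 38.7 CPM of miR-146a-3p against 7.15 to 12.5 CPM. The myeloid miR-142a-3p was also higher in these 3, at 17120 to 27511 CPM against 11107 to 13648 CPM, and the erythroid miR-451a ran from 12561 to 35139 CPM against 6236 to 15975 CPM. Their TMM factors, by which a library total is multiplied before fold changes are taken, lay between 1.23 and 1.29 against 1.02 to 1.17 in the other 7, so their CPM are higher relative to the TMM scale. The main results that rest on P6 are therefore also given without these 3 mice, an alternative chosen after seeing the data.

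MicroRNAs are short RNAs that guide silencing complexes to messenger RNAs by pairing through their seed, bases 2 to 8 of the mature strand. miR-146a is transcribed in response to NF-kB. It dampens signalling from Toll-like and interleukin-1 receptors by targeting the adaptors Traf6 and Irak1. In the brain miR-146a is known as a miRNA of microglia and of inflamed glia. The 5p strand is the guide of both precursors, and the 3p strand is the passenger that is mostly degraded.

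The mature sequences show which members can act through the same sites and which can be told apart by sequencing. They are given 5′ to 3′ as in RefSeq on GRCm38.p6, where all 4 members matched by name, and capitals mark the seed.
miR-146a-5p: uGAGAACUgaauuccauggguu
miR-146b-5p: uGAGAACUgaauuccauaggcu
miR-146a-3p: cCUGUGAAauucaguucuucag
miR-146b-3p: gCCCUAGGgacucaguucuggu
Both 5p members carry the seed GAGAACU, and of 1679 mature mouse miRNAs in RefSeq no others do. They differ at 2 of 22 bases, G18A and U21C, counted from 1 at the 5′ end with the base of miR-146a-5p first. The 3p members differ from each other at 18 of 22 positions, and each seed, CUGUGAA and CCCUAGG, occurs in 1 mature miRNA.

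The precursors are shown because both strands of each were counted, with capitals marking the 5p and then the 3p strand.
Mir146 (the gene of miR-146a): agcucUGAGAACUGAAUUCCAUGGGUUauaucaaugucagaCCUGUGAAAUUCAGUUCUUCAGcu
Mir146b: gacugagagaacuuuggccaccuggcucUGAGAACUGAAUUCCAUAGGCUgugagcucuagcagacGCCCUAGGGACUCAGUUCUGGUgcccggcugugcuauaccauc
Mir146 lies at chr11:43374397-43374461 on the minus strand of GRCm38.p6. The annotation (GENCODE M21) places no other gene over it, and the nearest is the lincRNA Gm12148, 11021 bases away. Its mature strands are at chr11:43374435-43374456 (5p) and chr11:43374399-43374420 (3p). Mir146b lies at chr19:46342762-46342870 on the plus strand, in an intron of the protein-coding gene Mfsd13a on the same strand, and overlaps none of its exons. Its mature strands are at chr19:46342790-46342811 (5p) and chr19:46342828-46342849 (3p).

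**Figure D1:**
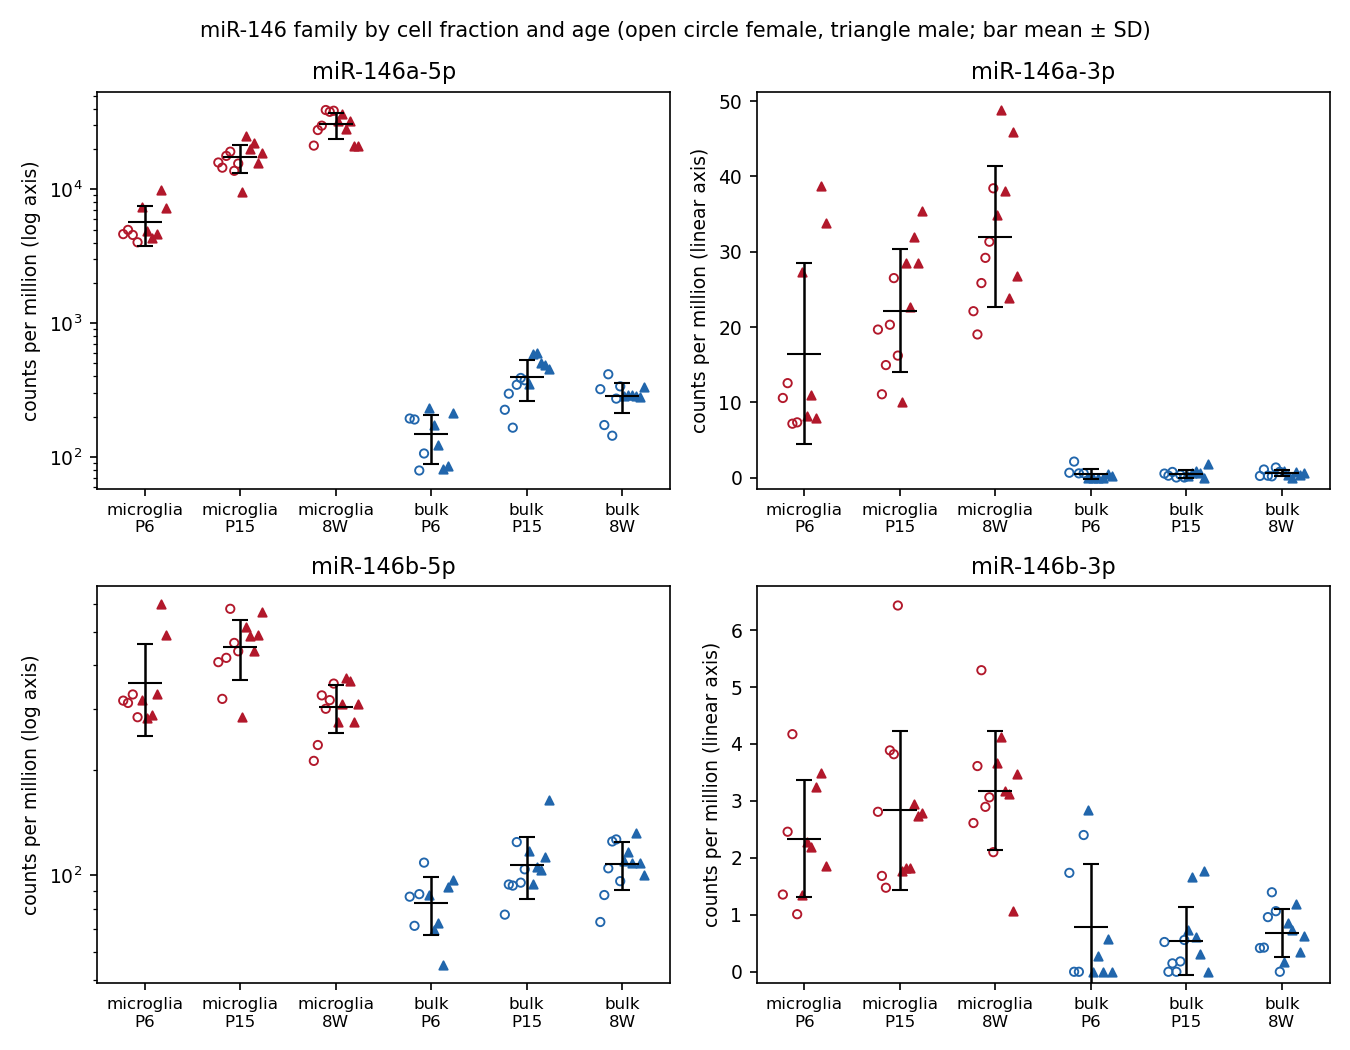
CPM of each family member in every analysed library, by cell fraction and age, with open circles for females, triangles for males and bars for the mean ± SD; the 5p members are on a log axis and the 3p members on a linear axis. All microglial libraries lie above all bulk libraries for miR-146a-5p, miR-146a-3p and miR-146b-5p, and the fractions overlap for miR-146b-3p. miR-146a-3p passed the filter through microglia alone, and how many of all features separate in this way was not counted.

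miR-146a-5p was by far the most abundant member in microglia and rose with age. In P6 microglia it ranged from 4021 to 9953 CPM with a median of 4750.0 CPM, and averaged 5653 ± 1899 CPM (SD, n = 10). In P15 microglia the lowest, median and highest values were 9603, 16829 and 24829 CPM, with a mean of 17337 ± 4067 CPM (SD, n = 12). At 8 weeks they were 21097, 31040.0 and 39152 CPM, with a mean of 30537 ± 6843 CPM (SD, n = 12). Every 8-week library was thus above every P6 library, and neighbouring ages overlapped. By mean CPM it ranked 32nd of 1882 features at P6, 19th at P15 and 12th at 8 weeks.

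In bulk cells miR-146a-5p stayed far lower at each age. Its lowest, median and highest values were 79.3, 148.3 and 233.1 CPM at P6, 165.6, 382.0 and 601.1 CPM at P15, and 144.2, 288.6 and 415.1 CPM at 8 weeks. The means were 148.1 ± 59.5 CPM (SD, n = 10), 398.4 ± 134.4 CPM (SD, n = 12) and 285.7 ± 71.2 CPM (SD, n = 12). The order of the 6 levels was therefore microglia at 8 weeks, P15 and P6, followed by bulk at P15, 8 weeks and P6, and the ranges of neighbours overlapped except between P6 microglia and P15 bulk.

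The passenger strand miR-146a-3p was present at a small fraction of the level of its guide. Its lowest, median and highest values in microglia were 7.15, 10.8 and 38.7 CPM at P6, 10.1, 21.5 and 35.4 CPM at P15, and 19.0, 30.3 and 48.8 CPM at 8 weeks. The means were 16.5 ± 12.1 CPM (SD, n = 10), 22.2 ± 8.19 CPM (SD, n = 12) and 32.0 ± 9.39 CPM (SD, n = 12). In bulk cells it lay near the floor, with 33 counts in all at P6, 24 at P15 and 30 at 8 weeks. Of the bulk libraries, 4 of 10 at P6, 3 of 12 at P15 and 1 of 12 at 8 weeks held no read of it. The summed bulk counts gave 0.456 CPM at P6 (95% exact Poisson interval 0.314 to 0.641), 0.462 at P15 (0.296 to 0.688) and 0.513 at 8 weeks (0.346 to 0.732).

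miR-146b-5p, the guide of the second precursor, was at a moderate level in microglia without the steep age course of miR-146a-5p. Its lowest, median and highest values were 283.1, 317.8 and 599.2 CPM at P6, 285.3, 451.7 and 581.5 CPM at P15, and 212.8, 310.0 and 366.9 CPM at 8 weeks. The means were 355.2 ± 104.3 CPM (SD, n = 10), 451.4 ± 87.9 CPM (SD, n = 12) and 304.1 ± 47.9 CPM (SD, n = 12), and all 3 ages overlapped. In bulk cells the values were 55.3, 87.3 and 108.6 CPM at P6, 77.0, 103.8 and 163.8 CPM at P15, and 73.4, 108.4 and 131.9 CPM at 8 weeks. The bulk ages overlapped as well, and the highest bulk library of any age stayed below the lowest microglial library.

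miR-146b-3p was the rarest member in microglia. The lowest, median and highest values there were 1.01, 2.23 and 4.17 CPM at P6, 1.48, 2.77 and 6.43 CPM at P15, and 1.06, 3.15 and 5.30 CPM at 8 weeks, from 3 to 27 counts a library. In bulk cells the median was 0.140 CPM at P6, 0.415 CPM at P15 and 0.682 CPM at 8 weeks, with maxima of 2.83, 1.76 and 1.40 CPM, and 5 libraries at P6, 3 at P15 and 1 at 8 weeks held none. Microglial and bulk ranges overlapped at each age, and many of these values were within a few counts of the floor.

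The first comparison asked how far each member was enriched in microglia over the bulk cells of the same brain. By limma's TREAT test, miR-146a-5p, miR-146b-5p and miR-146b-3p were higher in microglia with the ages pooled and at each age. The test asked for a log2 fold change beyond 1 in either direction, with Benjamini-Hochberg adjustment over all tested features (TREAT-adjusted p). miR-146a-3p was called each time too, but it passed the filter on low values through microglia alone. Its calls describe a feature that had to differ and are not counted as support. Among all 1072 features 23.3% were called higher with the ages pooled, 17.4% at P6, 21.3% at P15 and 21.2% at 8 weeks, so a call in itself is common. In these CD45+ and CD45- fractions a difference in level cannot separate fewer cells of a type from less RNA per cell.

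The guide miR-146a-5p was higher in microglia in 34 of 34 mice, with a log2 fold change of 5.90 ± 0.08 (SE, TMM scaled, adjusted p = 1.43e-55). At P6 the log2 fold change was 5.19 ± 0.16 (SE, TREAT-adjusted p = 5.81e-34), at P15 5.70 ± 0.14 (SE, TREAT-adjusted p = 4.98e-41) and at 8 weeks 6.82 ± 0.14 (SE, TREAT-adjusted p = 7.15e-47). The 8-week value corresponds to a 113.2-fold difference, and every microglial library exceeded every bulk library. How many of all features separated in this way, between fractions or between ages, was not counted. Ordered from the highest log2 fold change of 1072 features, miR-146a-5p stood 20th at P6, 11th at P15 and 3rd at 8 weeks.

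For its passenger miR-146a-3p the microglial level was the higher one, with a log2 difference of 5.66 ± 0.22 (SE, TREAT-adjusted p = 1.76e-29) and in 34 of 34 mice without overlap. By age the log2 fold changes were 5.23 ± 0.41 at P6, 5.77 ± 0.38 at P15 and 5.97 ± 0.36 at 8 weeks (SE, TREAT-adjusted p = 3.67e-14, 3.51e-18 and 1.09e-19 in limma TREAT). Fewer than 5 bulk libraries reached 1 CPM of it, so it was tested only through its level in microglia, and these p-values describe a feature that had to differ. Since the bulk side rests on at most 16 counts in a library, the size of this enrichment is imprecise. The log2 ratio of miR-146a-5p to miR-146a-3p within a library differed between microglia and bulk by 0.18 (permutation of signs, adjusted p = 0.588, higher in 20 of 34 mice). With a pseudocount of 2 in place of 0.5 it differed by 1.07 (adjusted p = 4.00e-05), so whether the strands were enriched alike depends on how counts near 0 are treated.

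The miR-146b strands were enriched less. For miR-146b-5p the log2 fold change was 1.93 ± 0.06 with the ages pooled (SE, TREAT-adjusted p = 7.67e-23), with 1.95 ± 0.11 at P6, 2.28 ± 0.10 at P15 and 1.57 ± 0.10 at 8 weeks (SE, TREAT-adjusted p = 2.70e-11, 1.65e-18 and 5.61e-07). It too was higher in microglia in 34 of 34 mice. The counts at 8 weeks could include reads of the far more abundant miR-146a-5p, and the bound on these given further on would turn the direction at that age. For miR-146b-3p the pooled log2 fold change was 2.65 ± 0.27 (SE, TREAT-adjusted p = 1.00e-07), and the microglial library was the higher in 31 of 34 mice. The exceptions were all at P6, where 7 of 10 mice showed the direction and the log2 fold change was 2.80 ± 0.52 (SE, TREAT-adjusted p = 0.00259). That call at P6 was lost with mouse as a fixed replicate block (2.22, adjusted p = 0.072) and in DESeq2 (1.40, adjusted p = 1.0), and was kept without the 3 males that stood apart (3.45, adjusted p = 3.66e-04). With each mouse left out in turn the P6 value ranged from 2.23 to 3.40, and the TREAT-adjusted p reached 0.0498. At P15 the log2 fold change of miR-146b-3p was 2.84 ± 0.45 and at 8 weeks 2.32 ± 0.42 (SE, TREAT-adjusted p = 2.32e-04 and 0.00353).

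Without the 3 P6 males the P6 log2 fold changes were 5.13 for miR-146a-5p and 1.964 for miR-146b-5p, and both passed TREAT. The value of miR-146a-3p, which passed the filter through microglia alone, was 5.22.

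**Figure D2:**
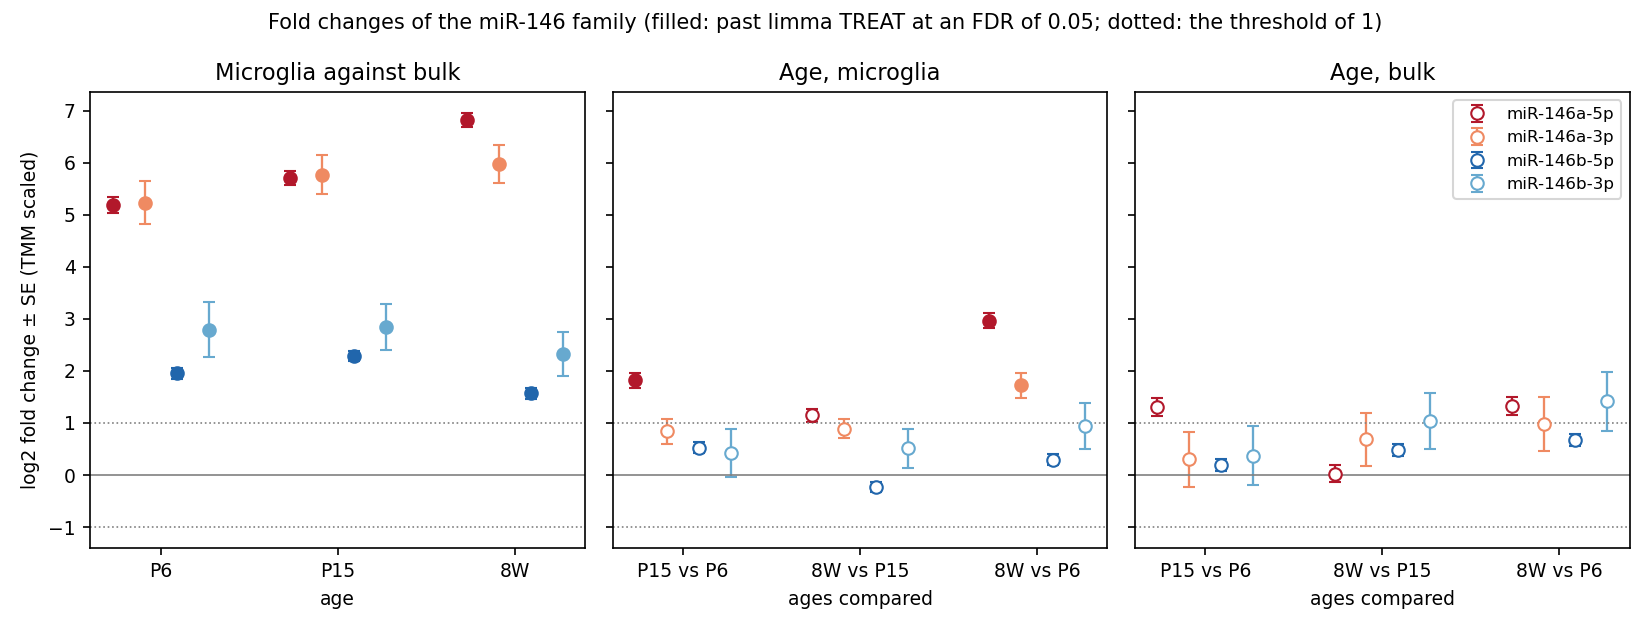
Log2 fold changes ± SE (limma-voom, TMM scaled) of the 4 members between microglia and bulk at each age, between ages in microglia and between ages in bulk; filled points passed limma TREAT at an FDR of 0.05 and dotted lines mark a log2 fold change of 1. Enrichment of both miR-146a strands lies between 5.19 and 6.82, that of both miR-146b strands between 1.57 and 2.84, and in bulk no age change is filled.

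The next comparison followed the members through age in microglia. From P6 to P15, miR-146a-5p rose by a log2 fold change of 1.82 ± 0.14 (SE, limma TREAT adjusted p = 1.60e-05) and was the member of the 4 that passed, where 0.746% of all features were called higher. Without the 3 P6 males it rose by 1.92 (adjusted p = 3.70e-06). The other members changed by log2 fold changes of 0.84 ± 0.25 (miR-146a-3p), 0.52 ± 0.11 (miR-146b-5p) and 0.42 ± 0.45 (miR-146b-3p), each with an adjusted p of 1.0. Without the 3 P6 males the value of miR-146a-3p was 1.201 (adjusted p = 1.0).

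From P15 to 8 weeks 0 of 4 members passed TREAT, where 4.57% of all features were called in either direction. The log2 fold change of miR-146a-5p was 1.15 ± 0.13 (SE, TREAT-adjusted p = 1.0), with a 95% interval of 0.90 to 1.40 that includes the threshold of 1. An unadjusted TREAT p under 0.05 was reached by 0 of 4 members. Tested against no change instead of against the threshold, miR-146a-5p and miR-146a-3p rose between these ages in limma (adjusted p = 1.08e-11 and 6.71e-05) and in edgeR, and 0 members passed in DESeq2, which kept the threshold of 1. Such calls were common, since of all 1072 features limma then called 190 higher and 209 lower and edgeR 184 and 235. miR-146b-5p had a log2 fold change of -0.23 ± 0.10 and miR-146b-3p of 0.51 ± 0.38.

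Between P6 and 8 weeks both miR-146a strands rose, where 7.18% of all features were called higher. For miR-146a-5p the log2 fold change was 2.97 ± 0.14 (SE, TREAT-adjusted p = 2.10e-19), a 7.82-fold rise with no overlap between the ages, and 3.10 without the 3 P6 males (adjusted p = 8.80e-19). For miR-146a-3p it was 1.73 ± 0.24 (SE, TREAT-adjusted p = 0.0129), with overlap, and 2.13 without the 3 P6 males (adjusted p = 4.18e-04). The call of miR-146a-3p was lost in DESeq2 (1.64, adjusted p = 0.0637) and with scaling by library size alone (1.29, adjusted p = 0.418). miR-146b-5p did not pass, with a log2 fold change of 0.29 ± 0.11 (SE, TREAT-adjusted p = 1.0), and its direction depended on scaling, since library size alone gave -0.17 and the mean CPM was 355.2 at P6 and 304.1 at 8 weeks. miR-146b-3p had a log2 fold change of 0.94 ± 0.44 (SE, TREAT-adjusted p = 1.0).

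In bulk cells no age comparison passed for any member. The largest changes of a guide were those of miR-146a-5p, at log2 fold changes of 1.30 ± 0.17 from P6 to P15 (SE, limma TREAT adjusted p = 0.525) and 1.33 ± 0.17 from P6 to 8 weeks (SE, TREAT-adjusted p = 0.108). The second of these passed when P6 female mouse 1, P6 male mouse 1 or P6 male mouse 6 was left out, with adjusted p between 0.0337 and 0.0497. From P15 to 8 weeks its log2 fold change was 0.03 ± 0.16, and the sign turned under DESeq2 size factors (-0.14) and library size alone (-0.44). For miR-146b-5p the bulk log2 fold changes were 0.19 ± 0.12, 0.48 ± 0.11 and 0.68 ± 0.12 in the same order of ages as above (P15 against P6, 8 weeks against P15, 8 weeks against P6). Of all features 3.54%, 11% and 25.7% were called in either direction in these 3 bulk comparisons. At an unadjusted TREAT p under 0.05 there were 1, 0 and 1 members, edgeR's quasi-likelihood test without a threshold called 1, 1 and 2 members, and DESeq2 called 0 in each. Of all 1072 features edgeR called 155 higher and 228 lower from P6 to P15. It called 302 and 228 from P15 to 8 weeks and 340 and 318 from P6 to 8 weeks, so such calls were common.

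Whether enrichment itself differed between ages was tested as an interaction of cell fraction and age. The enrichment of miR-146a-5p was larger at 8 weeks than at P6 by a log2 difference of 1.64 ± 0.21 (SE, limma TREAT adjusted p = 0.0147), where 6.62% of all features were called higher. Without the 3 P6 males the difference was 1.73 (adjusted p = 0.00721), and with library size alone it missed the threshold at 1.49 (adjusted p = 0.112). The 8-week enrichment differed from that at P15 by 1.12 ± 0.19 and the P15 enrichment from that at P6 by 0.51 ± 0.21 (SE, TREAT-adjusted p = 1.0 for each, where 3.36% and 1.59% of all features were called in either direction). For miR-146b-5p the differences were -0.39 ± 0.15 between 8 weeks and P6 and -0.71 ± 0.14 between 8 weeks and P15 (SE, TREAT-adjusted p = 1.0 for each). The values of miR-146a-3p and miR-146b-3p between 8 weeks and P6 were 0.74 ± 0.55 and -0.48 ± 0.67, and neither passed. An unadjusted TREAT p under 0.05 was reached by 0 of 4 members in the comparisons of enrichment with P15, where edgeR called 1 between P15 and P6 and 2 between 8 weeks and P15 and DESeq2 called 0. Of all 1072 features edgeR, without a threshold, called 130 higher and 85 lower between P15 and P6. Between 8 weeks and P15 it called 113 and 226.

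Of the 4 members 0 passed limma TREAT between the sexes in microglia at P6, P15 or 8 weeks, as did 0% of all 1072 features. An unadjusted TREAT p under 0.05 was reached by 0 of 4 members at each age, and edgeR and DESeq2 called 0 as well. At P6 the male log2 fold change over females was 0.33 ± 0.22 for miR-146a-5p and 0.75 ± 0.41 for miR-146a-3p. Without the 3 males that stood apart the latter was -0.087. At 8 weeks miR-146a-5p had a log2 fold change of -0.26 ± 0.18, and miR-146b-5p stayed within 0.16 of 0 at each age.

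In bulk cells 0 of 4 members passed limma TREAT between the sexes at each age either, as did 0% of all features. At P6 the bulk libraries of the 4 females held 4, 16, 4 and 5 counts of miR-146a-3p, and those of the 6 males held 0, 0, 0, 0, 3 and 1. The sexes did not overlap, at counts close to the floor. The log2 fold change of males over females was -2.97 ± 0.76 (SE, limma TREAT-adjusted p = 1.0, unadjusted 0.00591), a member and age singled out after its values were seen. edgeR's quasi-likelihood test without a threshold called it (-3.06, adjusted p = 0.028), and DESeq2 did not. It was the single member at an unadjusted TREAT p under 0.05 or called by edgeR in bulk, and at P15 and 8 weeks there were 0 by limma, edgeR and DESeq2.

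The ratio of the guides within each library does not depend on how libraries are scaled to each other. In microglia the log2 ratio of miR-146a-5p to miR-146b-5p had a lowest, median and highest value of 3.79, 3.90 and 4.52 at P6, 4.89, 5.21 and 5.67 at P15, and 6.09, 6.70 and 7.03 at 8 weeks. The 3 ages did not overlap. The means were 3.98 ± 0.22 (SD, n = 10), 5.25 ± 0.25 (SD, n = 12) and 6.63 ± 0.30 (SD, n = 12), which correspond to 15.7, 38.1 and 99.1 reads of miR-146a-5p per read of miR-146b-5p. The differences of 1.28 (P15 over P6), 1.38 (8 weeks over P15) and 2.66 (8 weeks over P6) each gave a two-sided permutation p of 1e-05, the smallest that 100000 resamples can give (adjusted p = 3.00e-05 over 12 ratio tests). Without the 3 P6 males exact permutation tests gave differences of 1.35 between P15 and P6 and 2.73 between 8 weeks and P6 (adjusted p = 5.95e-05 for each).

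In bulk cells the P6 mean of the same log2 ratio was 0.75 ± 0.64 (SD, n = 10), the P15 mean 1.83 ± 0.51 (SD, n = 12) and the 8-week mean 1.38 ± 0.52 (SD, n = 12), and in some P6 libraries miR-146b-5p was the more abundant guide. Within mice the microglial ratio exceeded the bulk ratio in 34 of 34, by 4.01 on the log2 scale (permutation of signs, p = 1e-05, adjusted p = 3.00e-05). miR-146b-5p made up 6.02% of the reads of both guides in P6 microglia, 2.59% at P15 and 1.02% at 8 weeks, against 37.8%, 22.5% and 28.2% in bulk. Together the guides, which share their seed, took 0.601% ± 0.199 (SD, n = 10) of all counts in P6 microglia, 1.78% ± 0.412 in P15 microglia (SD, n = 12) and 3.08% ± 0.687 in 8-week microglia (SD, n = 12), and between 0.0231% and 0.0506% on average in bulk.

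**Figure D3:**
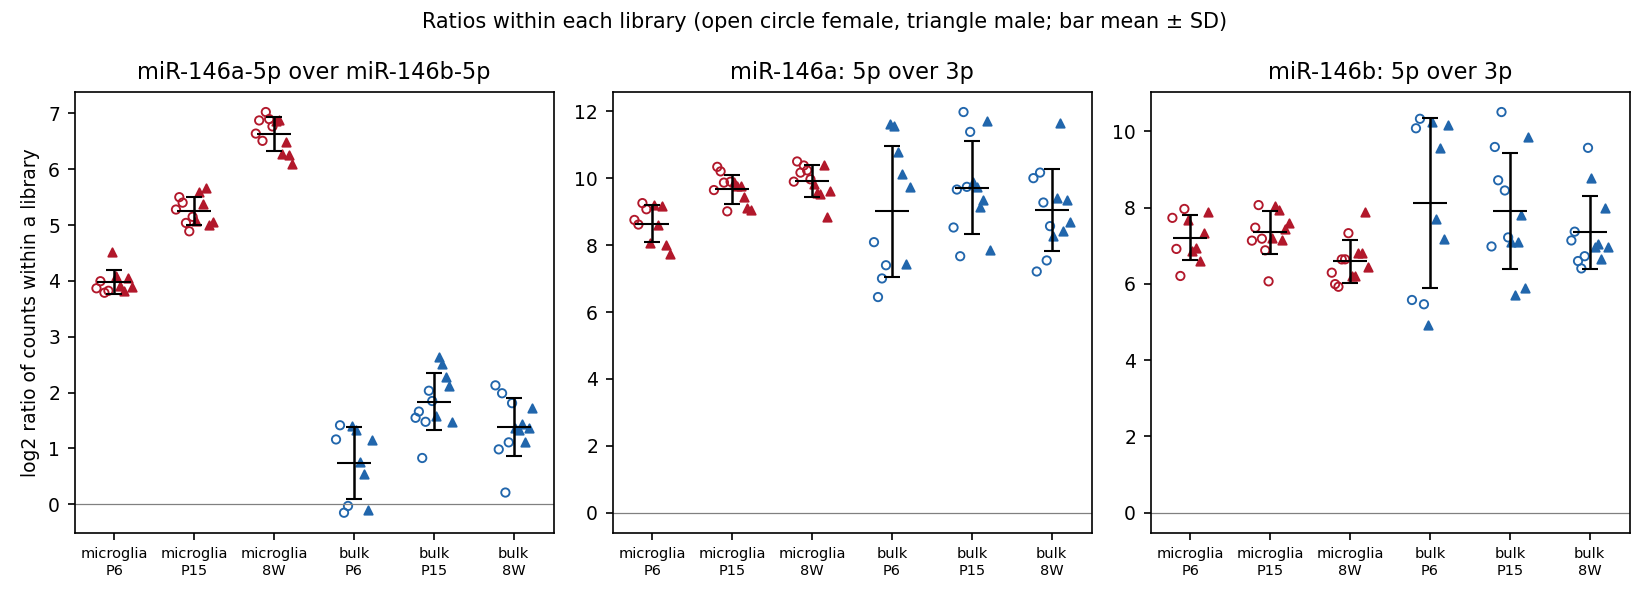
Log2 ratios of counts within each library (pseudocount 0.5) for the guides of both precursors and for the arms of each precursor, by cell fraction and age, with open circles for females, triangles for males and bars for the mean ± SD. The ratio of the guides climbs from 3.98 to 6.63 in microglia without overlap between ages and averages between 0.75 and 1.83 in bulk, and the arm ratios of bulk scatter widely because the 3p counts there are near 0.

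The arms of each precursor were compared in the same way. For miR-146a in microglia the log2 ratio of 5p to 3p averaged 8.65 ± 0.55 in P6 mice (SD, n = 10), 9.67 ± 0.44 in P15 mice (SD, n = 12) and 9.91 ± 0.48 in 8-week mice (SD, n = 12), so guide reads exceeded passenger reads 401-fold, 813-fold and 964-fold. It was higher at P15 than at P6 by 1.02 (permutation test, adjusted p = 2.20e-04) and at 8 weeks than at P6 by 1.27 (adjusted p = 7.20e-05), with overlap of the ranges. Between 8 weeks and P15 the difference was 0.25 (permutation test, adjusted p = 0.237). The 3 P6 males had the lowest arm ratios of their age, and without them the difference between P15 and P6 was 0.71 and that between 8 weeks and P6 was 0.96 (exact permutation tests, adjusted p = 0.00377 and 8.57e-04).

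For miR-146b the log2 arm ratio in microglia averaged 7.21 ± 0.60 in P6 mice (SD, n = 10), 7.35 ± 0.56 in P15 mice (SD, n = 12) and 6.60 ± 0.57 in 8-week mice (SD, n = 12). It was lower at 8 weeks than at P15 by 0.75 (log2 difference -0.75, permutation test, adjusted p = 0.00735). The difference between 8 weeks and P6 was -0.62 (permutation test, adjusted p = 0.0321), and it lost the call with a pseudocount of 2 (-0.46), without the 3 P6 males (-0.43) and when any of 8 mice was left out, with values from -0.73 to -0.53 over all 34 mice. The difference between microglia and bulk was -0.73 (adjusted p = 0.0321) and was -0.025 with a pseudocount of 2. The bulk library held at most 3 counts of this 3p strand in 6 of 10 mice at P6, 10 of 12 at P15 and 6 of 12 at 8 weeks.

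Reads of the guides can be told apart only beyond position 17, and how the counter divided reads that match both was not tested. The lowest share of miR-146b-5p was 0.767 counts per 100 counts of miR-146a-5p, in an 8-week microglial library. That share is the most that could have been counted as miR-146b-5p at 1 fixed rate in all libraries. It would equal between 10.6% and 17.6% of the microglial miR-146b-5p counts at P6, between 22.7% and 39.0% at P15 and at least 52.4% at 8 weeks, where the median was 80.1% and the library that sets the share would keep none. Taking it away would leave means of 311.8, 318.4 and 69.9 CPM in microglia and 81.8, 104.0 and 105.2 CPM in bulk. Under this bound the 8-week mean of miR-146b-5p would be lower in microglia than in bulk, so its enrichment at 8 weeks, its change towards 8 weeks and the ratios that use it depend on how such reads were counted.

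Beside these values stand the markers of other cells. The myeloid miRNAs miR-142a-3p, miR-142a-5p and miR-223-3p, summed, ranged from 10645 to 34889 CPM in microglia and from 106.1 to 502.8 CPM in bulk. The erythroid list, miR-451a, miR-144-3p, miR-144-5p and miR-486a-5p, was also higher in microglia, with mean sums of 18296 CPM at P6, 55952 CPM at P15 and 23620.0 CPM at 8 weeks against 2055, 6321 and 4497 CPM in bulk. The neuronal list (miR-124-3p, miR-128-3p, miR-138-5p) in microglia had a median of 35.4% of the bulk level of the same mouse at P6, 24.9% at P15 and 14.8% at 8 weeks. The oligodendrocyte list (miR-219a-5p, miR-219a-2-3p, miR-338-3p) had medians of 39.8%, 8.55% and 6.74%. Within microglia the mean sum of this oligodendrocyte list was 746.2 CPM at P6, 1591 CPM at P15 and 1848 CPM at 8 weeks, against 1899, 17012 and 26338 CPM in bulk. Between P6 and 8 weeks 2 of its 3 miRNAs rose in microglia, miR-338-3p by a log2 fold change of 1.85 (limma TREAT-adjusted p = 9.56e-08) and miR-219a-2-3p by 1.63 (adjusted p = 0.0224). miR-150-5p rose there by 2.38 (adjusted p = 1.07e-07) and from P15 to 8 weeks by 1.64 (adjusted p = 0.0191). From P6 to P15 erythroid miR-451a rose in microglia by 1.955 on the log2 scale, miR-486a-5p by 1.76 and miR-219a-2-3p by 1.97 (adjusted p = 0.00129, 0.0361 and 0.00129). These are the marker miRNAs that passed in either direction between ages in microglia, and miR-146a-5p passed from P6 to P15 and from P6 to 8 weeks. Endothelial miR-126a-3p and miR-126a-5p summed to 2506 to 3579 CPM on average in microglia and 17608 to 30583 CPM in bulk, and mural miR-143-3p and miR-145a-5p to 7131 to 9657 CPM and 7167 to 11544 CPM. miR-150-5p, listed as the lymphocyte marker, averaged 621.8 CPM at P6, 966.2 CPM at P15 and 2508 CPM at 8 weeks in microglia and 2178, 5059 and 6512 CPM in bulk, so it was lower in the CD45+ fraction. None of the markers was at 0 in every library of a group. The part of other cells in the levels of the miR-146 members was not tested.

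The bulk level of a miRNA was also expressed as a percentage of the microglial level of the same mouse. For miR-146a-5p the P6 median was 2.9%, the P15 median 2.38% and the 8-week median 0.885%. For the myeloid miR-142a-3p the medians were 0.895%, 1.41% and 1.40%, and for miR-223-3p 0.326%, 0.595% and 0.699%. At P6 the median of miR-146a-5p was thus above those of both myeloid miRNAs, and at 8 weeks it lay between them. miR-146b-5p stood far above, with medians of 24.9%, 22.6% and 36.8%. These percentages are descriptions and were not tested against each other.

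**Figure D4:**
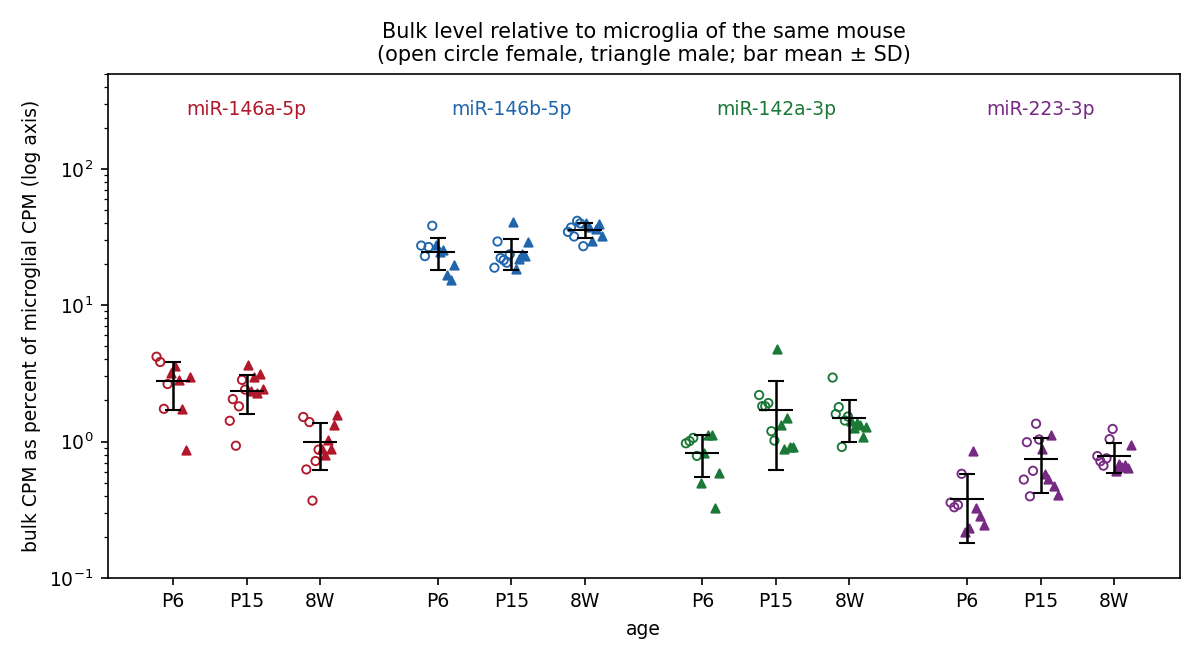
Bulk CPM as a percentage of the microglial CPM of the same mouse (log axis) for miR-146a-5p, miR-146b-5p and the myeloid miR-142a-3p and miR-223-3p at each age, with open circles for females, triangles for males and bars for the mean ± SD. The median of miR-146a-5p is 2.9% at P6 and 0.885% at 8 weeks, and all values of miR-146b-5p lie between 15.4% and 41.6%.

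Over the mice of 1 age, miR-146a-5p was compared with 5 other miRNAs in microglia, which made 15 relations of TMM log2 CPM. With miR-146a-3p at P6 Pearson's r was 0.936 over all 10 libraries (permutation p = 1.70e-04, adjusted p = 0.00255), Spearman's rho was 0.903 (permutation p = 6.90e-04, adjusted p = 0.0103), and r was 0.935 without the 2 farthest libraries. This was the single relation of the 15 that passed. The libraries fell into the 3 males, which were singled out for their high values of these same miRNAs, and the other 7. Within the 7 r was 0.658 (exact permutation p = 0.122, adjusted p = 0.33) and rho 0.75 (exact permutation p = 0.0663), so the call rests on the 3 males. At P15 r was 0.563 (permutation p = 0.0551, adjusted p = 0.165, rho = 0.42, permutation p = 0.177, n = 12) and 0.217 without the 2 farthest libraries. At 8 weeks r was 0.145 (permutation p = 0.652, adjusted p = 0.815, rho = 0.161, permutation p = 0.621, n = 12) and 0.451 without the 2 farthest libraries. With miR-146b-5p r was 0.629 at P15 (permutation p = 0.0316, adjusted p = 0.119, rho = 0.448, permutation p = 0.148, n = 12) and 0.253 without the 2 farthest libraries, and 0.453 at 8 weeks (permutation p = 0.134, adjusted p = 0.251, rho = 0.28, permutation p = 0.38, n = 12) and 0.529 without the 2 farthest. At P6 it was 0.743 over all 10 (permutation p = 0.0262, adjusted p = 0.119, rho = 0.297, permutation p = 0.406), 0.833 without the 2 farthest and -0.082 within the 7 (exact permutation p = 0.872). The relations with erythroid miR-451a, miR-150-5p and neuronal miR-124-3p did not pass, with adjusted permutation p from 0.119 to 0.973.

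The miRNAs whose levels over all 34 microglial libraries were most like that of miR-146a-5p were miR-455-3p (r = 0.968), miR-455-5p (0.968), miR-29a-3p (0.966), miR-29a-5p (0.960) and miR-24-3p (0.953). These libraries share the 3 ages, and the coefficients are given as a description. miR-455-3p averaged 230.7, 735.4 and 1580.0 CPM in microglia at P6, P15 and 8 weeks, and miR-29a-3p 5443, 14793 and 34453 CPM. In bulk these parted, since miR-455-3p averaged 55.6, 52.4 and 45.9 CPM and miR-29a-3p 510.5, 1885 and 16217 CPM. Within the family, miR-146a-3p stood 68th in likeness to its guide (r = 0.822) and miR-146b-5p 195th (r = 0.515).

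Most like miR-146b-5p were the myeloid miR-142a-3p (r = 0.847), miR-339-3p (0.807), miR-326-3p (0.806), miR-423-3p (0.774) and miR-652-3p (0.764), over the same 34 libraries. miR-142a-3p averaged 14366 CPM at P6, 19684 CPM at P15 and 12709 CPM at 8 weeks in microglia, with its highest mean at P15 as for miR-146b-5p.

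**Figure D5:**
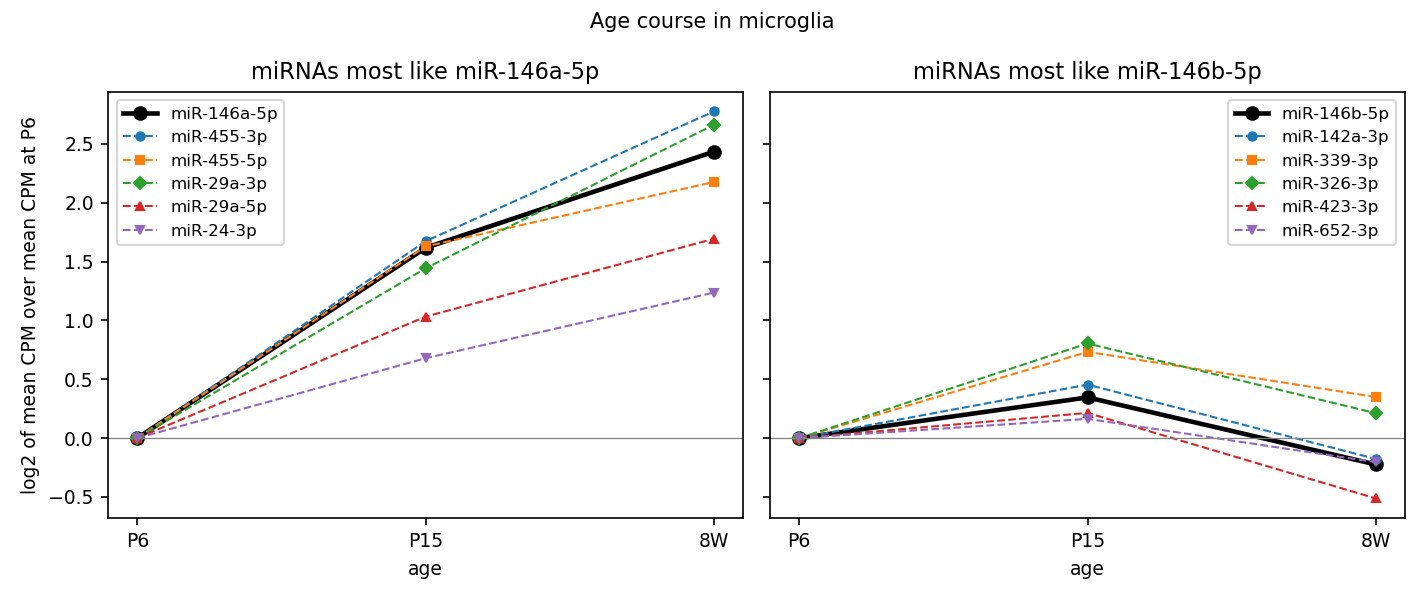
Log2 of the mean microglial CPM at each age over the mean at P6, for miR-146a-5p and miR-146b-5p (black) and the 5 miRNAs with the highest Pearson correlation with each over 34 microglial libraries. Those most like miR-146a-5p rise at both steps, and those most like miR-146b-5p are highest at P15.

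miR-146 belongs to a wider group of miRNAs described in feedback on Toll-like receptor and NF-kB signalling. Of 26 such miRNAs outside the family, listed with earlier results of these data known, 25 were tested. With the ages pooled 7 of 25 were higher in microglia and 5 lower, where 23.3% and 21.8% of all features were, and the median log2 fold change of the list was 0.30 against 0.29 over all features. The higher ones were led by miR-223-3p, a myeloid miRNA that restrains inflammasome activity (log2 fold change 7.52 ± 0.09), miR-21a-3p (3.25 ± 0.14) and miR-10a-5p (2.43 ± 0.19). The lowest were miR-149-5p (-1.77 ± 0.08), miR-212-3p (-1.71 ± 0.08) and miR-132-3p (-1.60 ± 0.12).

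In microglia, 4 of the 25 rose and 5 fell between P6 and 8 weeks, where 7.18% of all features were called higher and 9.42% lower. The median log2 fold change of the list was 0.48 against -0.17 over all features. Those that rose most were miR-10a-5p (3.38 ± 0.32), miR-212-3p (2.36 ± 0.17) and miR-203-3p (2.10 ± 0.10), and those that fell most were miR-301a-3p (-2.60 ± 0.09), miR-199a-3p (-2.55 ± 0.12) and miR-21a-3p (-2.10 ± 0.19). miR-155-5p, which promotes inflammatory activation and is often set against miR-146a, had a log2 fold change of 0.59 ± 0.14 (SE, TREAT-adjusted p = 1.0), with means of 97.98 CPM at P6, 66.6 CPM at P15 and 107.3 CPM at 8 weeks. miR-21a-5p, which is induced by inflammatory signals, had -0.67 ± 0.09 (adjusted p = 1.0) and miR-223-3p 0.20 ± 0.11 (adjusted p = 1.0).

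In bulk cells 6 of the 25 rose and 4 fell between the same ages, where 13.2% and 12.4% of all features did. The neuronal activity-related miR-132-3p (4.14 ± 0.21) and miR-212-3p (2.999 ± 0.14) rose most, while miR-199a-3p (-2.93 ± 0.12) and miR-301a-3p (-2.65 ± 0.09) fell most and miR-155-5p fell by 1.46 on the log2 scale (adjusted p = 0.00407). The enrichment at 8 weeks exceeded that at P6 for 3 of 25, where 6.62% of all features did, and these were miR-203-3p (2.83 ± 0.15), miR-10a-5p (2.56 ± 0.49) and miR-155-5p (2.05 ± 0.18). It was smaller for 3, miR-21a-3p (-3.03 ± 0.33), miR-21a-5p (-2.48 ± 0.13) and miR-132-3p (-2.18 ± 0.29), where 7.93% of all features were called lower. The corresponding value of miR-146a-5p was 1.64.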

How the data were processed

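The authors trimmed reads with fastp 0.20.0 (submitters' processing notes), dropped short ones and counted mature miRNAs of miRBase with miRDeep2, with GRCm38 (mm10) as genome. What they deposited are raw counts of reads per mature miRNA. The table had 2029 entries under 1885 names, and for a name listed more than once the entry with the largest total was kept (48.9% to 66.5% of all summed counts were kept). Of 62 candidate miRNAs named by coordinates, 3 whose counts equalled those of another candidate in every library were dropped, which left 1882 features. Tested features reached 1 CPM in 5 or more libraries, CPM being relative to the total of the kept entries. In R 4.3.3, limma-voom from limma 3.58.1 with TMM scaling from edgeR 4.0.16 fitted 12 group means of cell fraction, age and sex. Mouse was a random effect, contrasts were averaged over the sexes, and TREAT was run against an absolute log2 fold change of 1, with calls made at an FDR of 0.05 (Benjamini-Hochberg). Adjusted p-values are from this fit unless another test is named. Fold changes are TMM scaled, whereas CPM are not, so that their directions can differ.

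The pairing is that of the fractions of 1 brain, which share a mouse number in the sample titles. Deviations from group means correlated by 0.0739 within and -0.0154 between mice, and the consensus correlation was 0.124.

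Ratios used a pseudocount of 0.5 and two-sided permutation tests with 100000 resamples (exact with fewer than 10 mice in a group). Alternatives were a test without threshold, edgeR's quasi-likelihood test, DESeq2 1.42.0, other blocks, scalings and filters, inclusion of the mouse that was set aside, summed entries, each mouse left out, and 3 P6 males left out (added after the data were seen). The study removed 1 mouse as an outlier, and P6 female mouse 6 was taken to be that mouse from the list of libraries analysed. The members, the marker and pathway lists and the tests were chosen with earlier results of these data known. Named miRNAs are the members, the markers, the up to 3 most changed pathway miRNAs in each direction with miR-155-5p, miR-21a-5p and miR-223-3p, and the 5 miRNAs most like each guide. Of the sex differences in bulk, alternatives were run for miR-146a-3p at P6 only, chosen after its values were seen. Sequences are from RefSeq and gene models from GENCODE M21.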

Additional observations from a re-analysis of the deposited data

Results flagged for a closer look

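The enrichment of miR-146a-5p differed between ages, with a log2 difference of 1.64 between 8 weeks and P6 in the test of the interaction of cell fraction and age.

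Each member was also examined for libraries far from the others of their group of age, sex and cell fraction, by Dixon's criterion at the 95% level. Of 48 such groups 5 held such a library, where chance gives about 1 in 20, or 2.4. The highest 8-week male bulk library for miR-146a-5p was that of mouse 6 with 332.4 CPM, where the next had 292.1 CPM. For miR-146a-3p the bulk library of P6 female mouse 2 had 2.12 CPM from 16 counts, against 0.632 CPM for the next. For miR-146b-5p the bulk library of P15 male mouse 6 had 163.8 CPM, against 117.2 CPM. For miR-146b-3p the bulk library of P6 male mouse 1 had 2.83 CPM from 19 counts, against 0.570 CPM, and the microglial library of 8-week male mouse 5 was the lowest of its group with 1.06 CPM from 5 counts, against 3.12 CPM. None of these libraries was left out of the main results. The causes were not tested.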

How the results depend on the processing

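Of the comparisons between groups, the enrichment of miR-146a-5p, miR-146b-5p and miR-146b-3p pooled and at P15 and 8 weeks, the rise of miR-146a-5p from P6 to P15 and to 8 weeks and the ratio of the guides in microglia kept their direction and call under each alternative run. That of miR-146a-3p did too, but it passed the filter through microglia alone. The bound on reads shared by the guides was not run through these tests. Elsewhere the cause was not tested unless the alternative itself shows it, and the values are log2 differences.

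The moderated limma test, which asks for any change, called more. These were miR-146a-3p (0.84) and miR-146b-5p (0.52) from P6 to P15 in microglia, miR-146a-5p (1.15) and miR-146a-3p (0.89) from P15 to 8 weeks, and miR-146b-5p (0.29) from P6 to 8 weeks. In bulk it called miR-146a-5p (1.30 at P15 and 1.33 at 8 weeks, over P6), miR-146b-5p (0.48 over P15 and 0.68 over P6 at 8 weeks) and miR-146b-3p (1.41 at 8 weeks over P6). Of the differences in enrichment it called miR-146a-5p (1.12) and miR-146b-5p (-0.71) between 8 weeks and P15 and miR-146b-5p (-0.39) between 8 weeks and P6. edgeR's quasi-likelihood test gave 0.77, 0.52, 1.15, 0.88 and 0.28 for the same microglial changes, 1.23, 1.27, 0.49 and 0.67 for those of miR-146a-5p and miR-146b-5p in bulk, and 1.105, -0.73 and -0.38 for those of enrichment, and it also called that of miR-146a-5p between P15 and P6 (0.60) and the sex difference of miR-146a-3p in P6 bulk (-3.06, not called under the other alternatives). The bulk change of miR-146b-3p from P6 to 8 weeks was 0.054 in edgeR and 0.0027 in DESeq2. edgeR reversed miR-146b-3p from P6 to P15 in bulk (-0.97) and its difference in enrichment between 8 weeks and P6 (0.91). Over all features, 253 rose and 325 fell from P6 to 8 weeks in microglia in the moderated test, against 77 and 101 with the threshold. That test called 170 higher and 196 lower from P6 to P15 and 190 and 209 from P15 to 8 weeks in microglia. In bulk it called 191 and 225 from P6 to P15, 339 and 204 from P15 to 8 weeks and 416 and 294 from P6 to 8 weeks. Of the differences in enrichment it called 118 and 270 between 8 weeks and P15 and 192 and 383 between 8 weeks and P6.

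In DESeq2 the enrichment of miR-146b-3p at P6 (1.40) and the rise of miR-146a-3p to 8 weeks (1.64) lost their calls. Reversed there were miR-146b-3p from P6 to P15 in bulk (-0.92), miR-146a-5p from P15 to 8 weeks in bulk (-0.13), the difference in enrichment of miR-146b-3p between 8 weeks and P6 (0.95) and the sex difference of miR-146b-5p at P15 (0.019). With mouse as a fixed replicate block the enrichment of miR-146b-3p at P6 lost its call (2.22) and its difference between 8 weeks and P6 reversed (0.028), and the block changed no other call of a member. The fit without a block changed no call of a member.

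DESeq2 size factors reversed miR-146a-5p from P15 to 8 weeks in bulk (-0.14), the difference in enrichment of miR-146b-3p between P15 and P6 (-0.047) and the sex difference of miR-146b-5p at P15 (0.014). With library size alone the same values were -0.44, -0.24 and 0.069, miR-146b-5p reversed from P6 to 8 weeks in microglia (-0.17), and the rise of miR-146a-3p (1.29) and the interaction of miR-146a-5p between 8 weeks and P6 (1.49) lost their calls. That scaling moved the median of all features by -0.46 from P6 to 8 weeks in microglia, where it called 39 features higher and 175 lower, and by -0.32 in bulk (101 and 177). miR-146a-5p from P15 to 8 weeks in bulk was -0.023 without the filter, -0.042 with at least 10 counts in at least 12 libraries and -0.16 with summed entries. The stricter filter and summed entries also gave -0.15 and -0.021 for the difference in enrichment of miR-146b-3p between P15 and P6.

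Without P6 males 1, 5 and 6 that difference was -0.61, the sex differences were -0.087 (miR-146a-3p, P6), -0.0498 (miR-146b-5p, P6) and 0.019 (miR-146b-5p, P15), the miR-146b arm ratio between 8 weeks and P6 lost its call (-0.43), r with miR-146a-3p at P6 lost its call (0.658), and r with miR-146b-5p reversed (-0.082). With a pseudocount of 2 the arm ratio of miR-146a between microglia and bulk was called (1.07) and those of miR-146b were lost between 8 weeks and P6 (-0.46) and between microglia and bulk (-0.025). With the mouse set aside included, the miR-146b arm ratio between P15 and P6 reversed (-0.0012). By library size alone r passed with miR-146a-3p at P15 (0.671), miR-146b-5p at P6 (0.857) and P15 (0.721) and miR-451a at P6 (0.763), and reversed with miR-451a at P15 (-0.167).

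With each mouse left out in turn, values ranged from -0.093 to 0.096 for miR-146a-5p from P15 to 8 weeks and from 1.26 to 1.45 from P6 to 8 weeks, both in bulk. The differences in enrichment ranged from -0.65 to 0.52 (miR-146b-3p, P15 and P6), -1.05 to 0.12 (miR-146b-3p, 8 weeks and P6) and -0.016 to 0.58 (miR-146a-3p, 8 weeks and P15). The sex differences ranged from -0.048 to 0.51 (miR-146b-3p, P6), -0.35 to 0.051 (miR-146b-3p, 8 weeks), -0.063 to 0.10 (miR-146b-5p, P15) and -0.025 to 0.12 (miR-146b-5p, 8 weeks). The miR-146b arm ratio ranged from -0.73 to -0.53 between 8 weeks and P6, where leaving out any of 8 mice ended the call, and from -0.84 to -0.63 between microglia and bulk, where 5 did. These were 8-week females 2 and 3, 8-week males 1 and 2, P6 females 1 and 5 and P6 males 1 and 6 for the former, and 8-week male 1, P6 females 2 and 3 and P6 males 2 and 6 for the latter. Depth limits the 3p members most, as many bulk libraries hold at most 3 of their reads.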
